A study of Saccharomyces cerevisiae with 8 samples.

Results

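The genes described here encode the translation factors of the yeast cytosol, chosen by name as a list of 33 open reading frames (ORFs) that held 20 initiation, 11 elongation and 2 release factors. Of these, 31 had a row of values among the 6152 ORFs measured, and 26 had a value in every one of the 8 columns. *TEF2* (YBR118W), the second copy for elongation factor eEF1A, and *ANB1* (YJR047C), the hypoxic form of eIF5A, were not analysed here. Messenger RNA is read by ribosomes with the help of soluble proteins that bind them only for a step. Initiation factors bring the cap, the small subunit and the initiator tRNA together and find the start codon, elongation factors deliver aminoacyl-tRNA and move the ribosome along, and release factors free the finished chain at a stop codon. In budding yeast many of these genes are among the most strongly transcribed of the genome, and several exist as a pair of near-identical copies.

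The study compared 2 *Saccharomyces cerevisiae* strains that differ in ethanol tolerance, CECT10094 from flor wine, which the sample labels call PE35M, and Temohaya-MI26 from agave fermentation. Each strain was grown in GPY medium (yeast extract, peptone and glucose) with 10 or 0% (v/v) ethanol and sampled early and late. Every early sample dates from 1 h after inoculation. Late samples were taken with ethanol at 28 h in CECT10094 and at 40 h in Temohaya-MI26, and without ethanol at 10 h in both strains, so that ethanol and hours of culture cannot be told apart in the late comparison. The labels place the late samples in exponential phase and the study's methods place them after it. A value is the log2 ratio of Cy5-labelled cDNA of a sample to that of a Cy3-labelled pool, made from the RNA of all samples, with no dye swap. The medians of 3 slides gave 1 column per condition, 24 slides in all, and so the spread between slides is unknown here and no single difference has a replicate check. Ratios of different genes are not levels relative to each other, and a lower ratio cannot tell fewer cells that carry a transcript from less transcript per cell.

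The columns held 5612 to 6115 of the 6152 ORFs. Across ORFs, correlations of columns ran from -0.356, for early Temohaya-MI26 with ethanol against CECT10094 without it, to 0.823 for the strains late without ethanol. The dyes are stated in the methods, so the direction of the ratios was kept. On chromosomes I and III and the right arm of II, ORFs lay above the median of the column by 0.46 in CECT10094 and by 0.69 in Temohaya-MI26 late without ethanol, against 0.05 to 0.20 in the other 6 columns. *EFB1*, *FUN12* and *SUP45* lie in those parts, as does *RPG1*, and their late differences with ethanol are given with and without that offset. What lies behind the offset was not tested.

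Translation factors as a group were low against the pool early with ethanol and high early without it. Their median log2 ratio was -0.47 in CECT10094 and -0.55 in Temohaya-MI26 early with ethanol, and 0.50 and 0.95 in the same strains early without it. In the late stage the medians were -0.12 and 0.10 with ethanol, against -0.10 and -0.23 without it, for CECT10094 and Temohaya-MI26 in that order. Early with ethanol, 5 of 30 genes lay above the median of all ORFs in CECT10094 and 6 of 31 in Temohaya-MI26. Early without it, 27 of 28 and 24 of 27 did so. Elongation factors ranged widely in the late stage. Their median was 0.65 in Temohaya-MI26 late with ethanol, where 8 of 9 lay above the median of all ORFs, and the range late without ethanol reached from -1.07 to 2.70 in CECT10094.

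**Figure D1:**
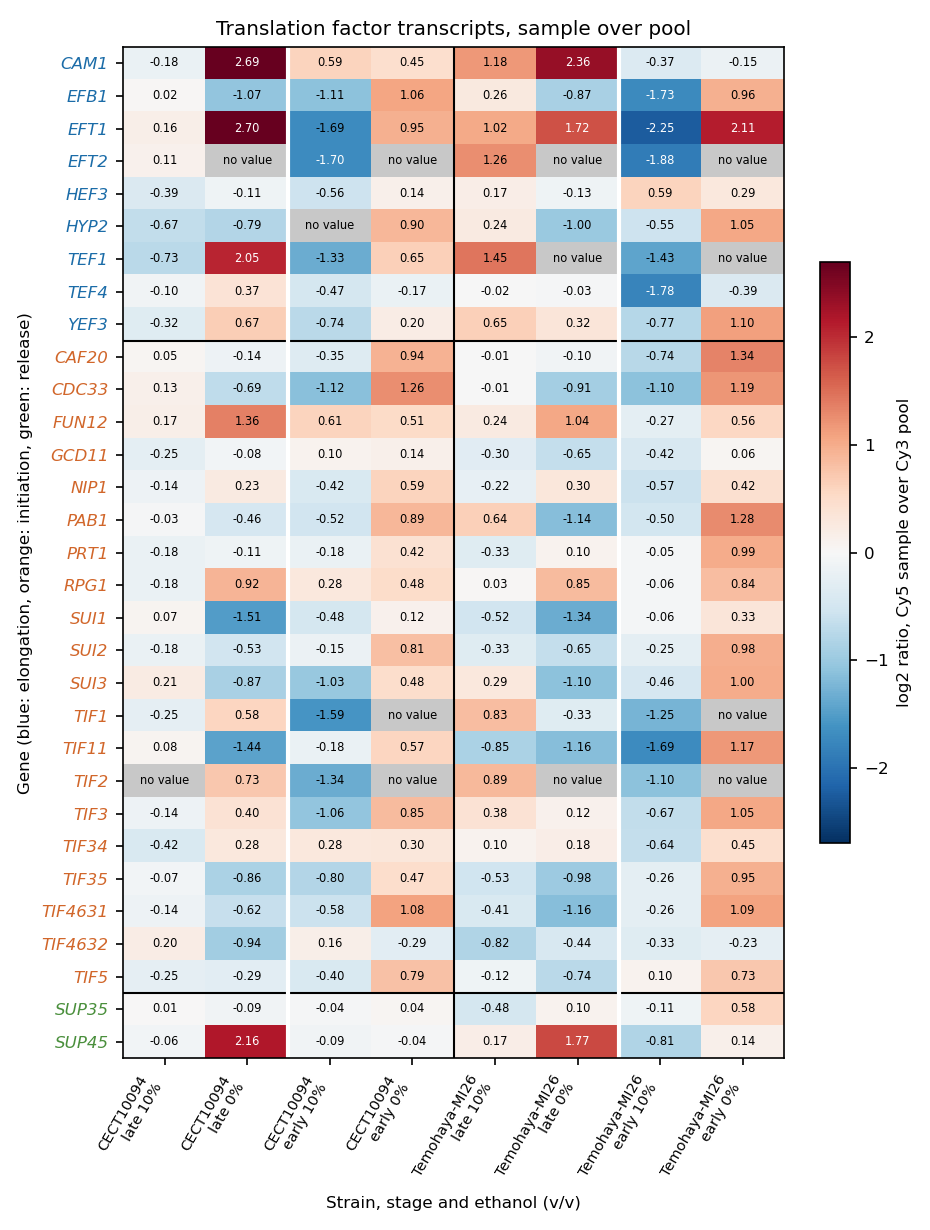
Log2 ratio of sample (Cy5) to pool (Cy3) for the 31 measured translation factors in the 8 columns, each the median of 3 slides, with elongation factors in blue, initiation factors in orange and release factors in green; grey cells have no value. Early columns with ethanol are mostly blue and early columns without it mostly red, while *CAM1*, *EFT1* and *SUP45* are dark red late without ethanol, with CECT10094 at 2.69, 2.70 and 2.16 and Temohaya-MI26 at 2.36, 1.72 and 1.77.

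Missing values fell on genes with a near-identical copy. *EFT2* (YDR385W), the second gene of the translocase eEF2, had no value in the 4 columns without ethanol, and *TIF1* (YKR059W) and *TIF2* (YJL138C), which encode the same helicase eIF4A, had none early without ethanol. *TEF1* (YPR080W), for eEF1A, had none in Temohaya-MI26 without ethanol, and *HYP2* lacked 1 value, in CECT10094 early with ethanol. With ethanol in the early stage, values were missing for 3.23% of the listed genes in CECT10094 and for none in Temohaya-MI26. Without ethanol in the early stage, CECT10094 lacked values for 9.68% of the listed genes and Temohaya-MI26 for 12.9%. Of all ORFs they lacked 1.58 and 2.21%, and of cytosolic ribosomal protein genes 16.3 and 17.8%. Both of these early columns without ethanol were also ones in which the measured translation factors were high. Temohaya-MI26 late without ethanol lacked values for 9.68% of the listed genes as well, and for 8.78% of all ORFs. In that column the measured translation factors were low, with a median of -0.23 where all ORFs had 0.225.

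Where both copies of a near-identical pair were measured they gave close values. Whether the spotted products can tell the copies apart was not tested. *EFT1* (YOR133W) and *EFT2* differed by 0.01 to 0.37 in 4 columns and *TIF1* and *TIF2* by 0.06 to 0.25 in 4 columns. Diverged pairs lay further apart. *TIF4631* (YGR162W) and *TIF4632* (YGL049C), both forms of the scaffold eIF4G, differed by up to 1.37 over the 8 columns. The gap reached 1.36 for *YEF3* (YLR249W) and *HEF3* (YNL014W), which encode the fungal factor eEF3. It reached 2.38 for *TEF4* (YKL081W) and *CAM1* (YPL048W), both for the gamma subunit of the exchange complex eEF1B.

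After 1 h of ethanol, 12 of the 27 translation factors that could be tested were lower in both strains and none was higher, by limma at an adjusted p under 0.05. These were 3 elongation factors, *EFT1*, *EFB1* and *YEF3*, and 9 initiation factors, and the falls ran from 2.14-fold for *SUI2* to 11.34-fold for *EFT1*. *EFT2*, *TIF1*, *TIF2* and *TEF1* lacked the values for a test. Of all 5905 ORFs tested, 6.94% fell and 10.5% rose. At an unadjusted p under 0.05, 16 of the listed genes fell and none rose, where 11.7% of all ORFs fell and 19.3% rose. The fit sets a change common to both strains against the difference between the strains, which are the only repeat, so p does not measure the spread between cultures. All 12 calls were kept under every alternative of scaling, prior and filter that was run.

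Single differences were also set against limits that hold the central 95% of a normal distribution with the mean and standard deviation of all ORFs. This is the standard-deviation rule of the study's methods, without the false discovery step that they also name. They mark the ends of a distribution and are no test. In CECT10094 early the limits were -1.53 and 2.29, and 6 of 27 genes fell past the lower one. They were *EFT1*, *CDC33*, *EFB1*, *TEF1*, *TIF3* and *TIF4631*. Of all ORFs 3.53% fell past it, and 2.18% rose past the upper limit, where no listed gene lay. In Temohaya-MI26 early the limits were -2.21 and 2.07, and 4 of 27 genes fell past the lower one (*EFT1*, *TIF11*, *EFB1* and *CDC33*), with none past the upper one. The shares of all ORFs were 3.08 and 2.74%. *EFT1*, *EFB1* and *CDC33* were past the lower limit in both strains.

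The largest fall belonged to eEF2, the GTPase that moves the ribosome by a codon after each peptide bond. *EFT1* had log2 ratios of -1.69 in CECT10094 and -2.25 in Temohaya-MI26 with ethanol, against 0.95 and 2.11 without it. Both values with ethanol lay below both values without it, and CECT10094 differed by -2.64 and Temohaya-MI26 by -4.36. The common change was -3.50 ± 0.51 (SE), with an adjusted p of 0.00135 in limma. For *EFT2* the ratios with ethanol were -1.70 and -1.88, with no value to set them against.

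*EFB1* (YAL003W) encodes the subunit of eEF1B that reloads eEF1A with GTP. Its ratios were -1.11 in CECT10094 and -1.73 in Temohaya-MI26 with ethanol, against 1.06 and 0.96 without it, a common change of -2.43 ± 0.35 (SE, adjusted p = 0.00132 in limma). The strains were close to each other and the conditions well apart. *TEF1*, for eEF1A itself, had -1.33 with ethanol and 0.65 without it in CECT10094, which makes -1.98. In Temohaya-MI26 it had -1.43 with ethanol and no partner value, so it has no test. The gamma subunits, which tether the exchange factor, moved less. *TEF4* had differences of -0.30 in CECT10094 and -1.40 in Temohaya-MI26 (adjusted p = 0.161 in limma, and 0.0493 with columns centred on their medians), and *CAM1* had 0.14 and -0.22 (adjusted p = 0.972).

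*YEF3*, the main gene of eEF3, fell by 1.40 ± 0.42 (SE, adjusted p = 0.0408 in limma), with ratios of -0.74 and -0.77 with ethanol against 0.20 and 1.10 without it, CECT10094 first. Its paralogue *HEF3*, which is little expressed in ordinary growth, had -0.56 and 0.59 with ethanol against 0.14 and 0.29, and the values overlapped. *HYP2* (YEL034W), the aerobic form of the hypusine-bearing factor eIF5A, was measured with and without ethanol only in Temohaya-MI26, at -0.55 against 1.05 (adjusted p = 0.0785 in limma). The median difference of the elongation factors was -0.94 in CECT10094 (n = 7 genes) and -1.60 in Temohaya-MI26 (n = 7), where the median of all ORFs was 0.42 and -0.08. These medians cover different genes, as *TEF1* counted only in CECT10094 and *HYP2* only in Temohaya-MI26.

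Among initiation factors the largest common fall was in the cap-binding complex eIF4F, though in Temohaya-MI26 the eIF1A gene *TIF11* had a larger one, -2.86 against -2.30 for *CDC33*. *CDC33* (YOL139C), for the cap-binding protein eIF4E, had -1.12 in CECT10094 and -1.10 in Temohaya-MI26 with ethanol, against 1.26 and 1.19 without it. The strains differed by 0.02 with ethanol and 0.07 without it, and the common change was -2.34 ± 0.34 (SE, adjusted p = 0.00141 in limma), or 5.07-fold lower. *TIF4631*, the first eIF4G gene, had -0.58 and -0.26 with ethanol against 1.08 and 1.09 without it, a change of -1.51 ± 0.35 (SE, adjusted p = 0.0133). The second eIF4G gene, *TIF4632*, had 0.16 and -0.33 with ethanol against -0.29 and -0.23 without it, so its conditions overlapped (adjusted p = 0.833). The difference between the paralogues was not tested.

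The helicase partner eIF4B, from *TIF3* (YPR163C), fell by 1.82 ± 0.36 (SE, adjusted p = 0.00679 in limma), with -1.06 and -0.67 with ethanol against 0.85 and 1.05 without it. *TIF1* and *TIF2*, for eIF4A, lay between -1.59 and -1.10 with ethanol in both strains and had no value without it. *PAB1* (YER165W), the poly(A)-binding protein that joins the tail to eIF4G, had -0.52 and -0.50 with ethanol against 0.89 and 1.28 without it (common change -1.60 ± 0.40 (SE), adjusted p = 0.0196). *CAF20* (YOR276W), which competes with eIF4G for eIF4E and so represses initiation, fell as well, by 1.68 ± 0.36 (SE, adjusted p = 0.00962). Its ratios were -0.35 and -0.74 with ethanol against 0.94 and 1.34 without it. Factor and repressor of the cap complex thus stood on the same side.

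In the ternary complex, eIF2 carries the initiator tRNA with GTP. The beta subunit *SUI3* (YPL237W) had -1.03 in CECT10094 and -0.46 in Temohaya-MI26 with ethanol, against 0.48 and 1.00 without it, and fell by 1.49 ± 0.34 (SE, adjusted p = 0.0136 in limma). The alpha subunit *SUI2* (YJR007W), whose phosphorylation controls the amount of ternary complex, fell by 1.10 ± 0.34 (SE, adjusted p = 0.0492), close to the threshold. The gamma subunit *GCD11* (YER025W) had 0.10 and -0.42 with ethanol against 0.14 and 0.06 without it (adjusted p = 0.678). Transcripts of the 3 subunits of a complex thus had log2 changes between -1.49 and -0.26, and the gaps between them were not tested.

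Of the 4 factors of scanning and subunit joining, 1 passed. *TIF11* (YMR260C), for eIF1A, had -0.18 in CECT10094 and -1.69 in Temohaya-MI26 with ethanol, against 0.57 and 1.17 without it, and the common change of -1.81 ± 0.50 (SE) had an adjusted p of 0.0303 in limma. Its fall was -0.75 in CECT10094 and -2.86 in Temohaya-MI26, and with 1 column per condition no test of that gap could be made. *SUI1* (YNL244C), for eIF1, had differences of -0.60 and -0.38 (adjusted p = 0.395). *TIF5* (YPR041W), the GTPase activator eIF5, had -1.19 and -0.63 (adjusted p = 0.110), and *FUN12* (YAL035W), the subunit-joining GTPase eIF5B, had 0.10 and -0.83 (adjusted p = 0.557).

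Of the 5 subunits of eIF3, the large complex that holds the small subunit ready, 1 passed the test. *TIF35* (YDR429C), subunit g, had -0.80 and -0.26 with ethanol against 0.47 and 0.95 without it, a fall of 1.24 ± 0.35 (SE, adjusted p = 0.0309 in limma). *NIP1* (YMR309C), subunit c, differed by -1.01 in CECT10094 and by -0.998 in Temohaya-MI26 and missed the threshold (adjusted p = 0.0669). *PRT1* (YOR361C), *TIF34* (YMR146C) and *RPG1* (YBR079C), subunits b, i and a, had common changes between -0.82 and -0.55 with adjusted p between 0.140 and 0.369. All 5 differences lay below 0 in both strains. The median of all 18 measured initiation factors was -0.99 in CECT10094 and -1.15 in Temohaya-MI26, and 16 and 18 of them lay below 0. Of all ORFs, 1744 of 6014 lay below 0 in CECT10094 and 3151 of 5872 in Temohaya-MI26.

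Neither release factor passed the test. *SUP45* (YBR143C), the stop-codon reader eRF1, had differences of -0.05 in CECT10094 and -0.95 in Temohaya-MI26 (adjusted p = 0.412 in limma), and its GTPase partner *SUP35* (YDR172W), eRF3, had -0.08 and -0.69 (adjusted p = 0.528). In both genes the sizes lay inside the limits of both strains. Over all measured factors, 26 of 27 early differences lay below the median of all ORFs in each strain.

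**Figure D2:**
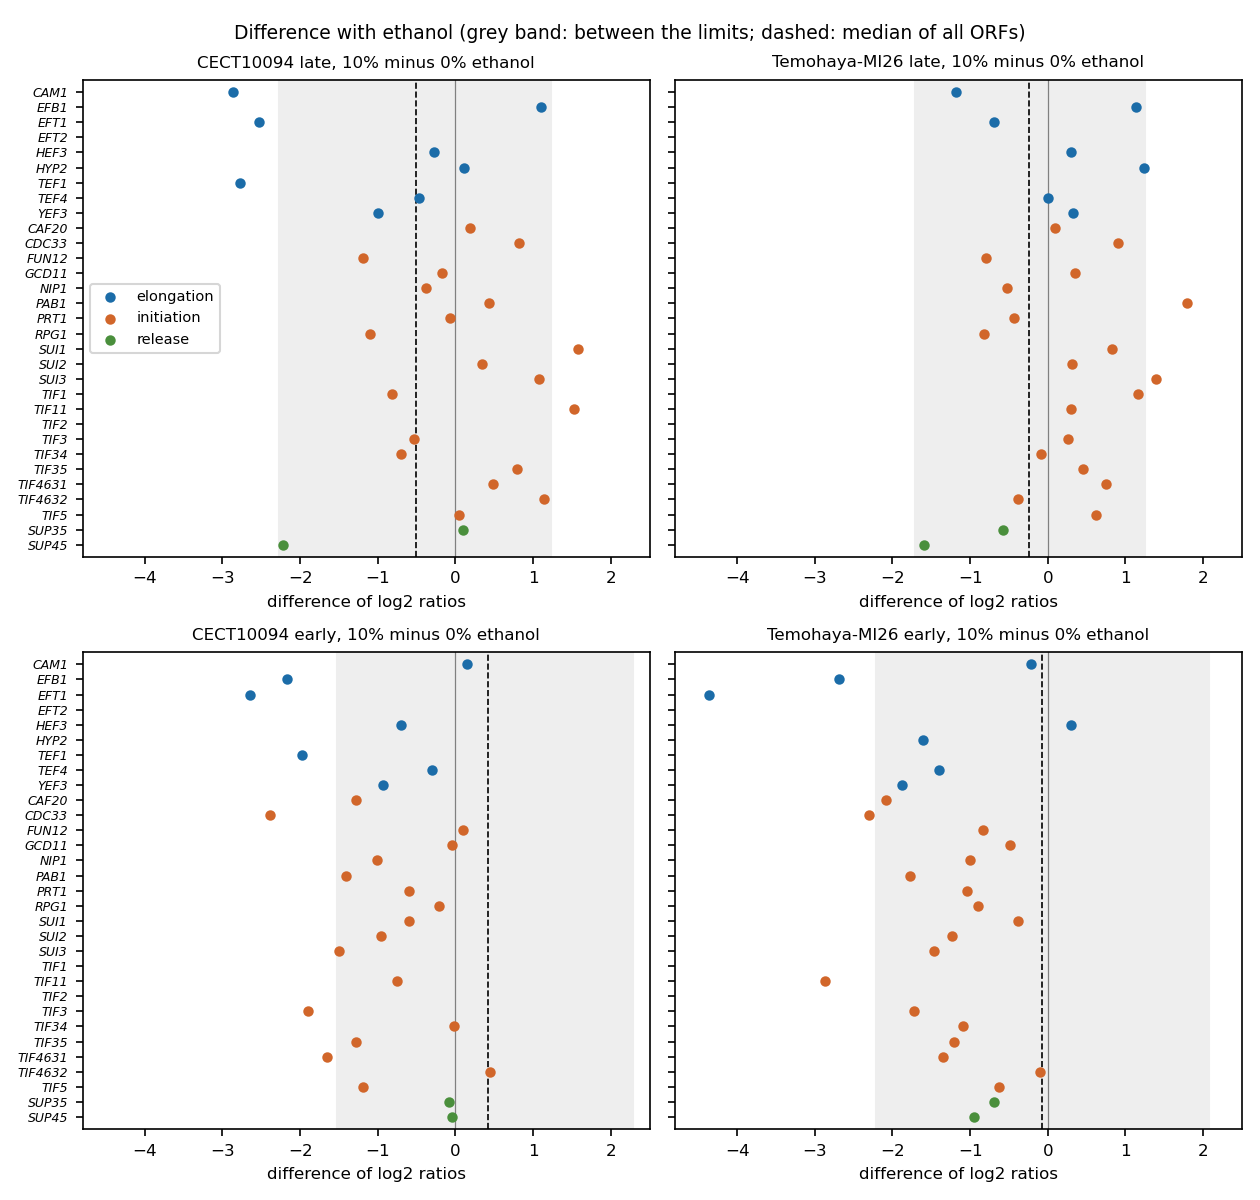
Difference of log2 ratios, 10% minus 0% ethanol, for each translation factor in each strain, late in the upper panels and early in the lower ones; the grey band lies between the 95% limits, the dashed line is the median of all ORFs, and genes with no point lack a value at 10 or 0%. Early points lie mostly left of the dashed line, down to -4.36 for *EFT1* in Temohaya-MI26, and late points lie on both sides of it.

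In the late stage the change with ethanol was another one. Only *CAM1* and *SUP45* of the 28 genes tested passed limma's threshold, both lower with ethanol, and none passed it upwards. Of 5893 ORFs tested, 7.01% fell and 0.815% rose, and the median change over all ORFs was -0.36. At an unadjusted p under 0.05, 5 listed genes fell and 5 rose, where 22.9% of all ORFs fell and 3.89% rose. With columns centred on their medians, 2 fell and 4 rose, the 4 being *EFB1*, *PAB1*, *SUI1* and *SUI3*, and under quantile normalization none passed in either direction, so that the split depends on the scaling.

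*CAM1*, the eEF1B gamma gene that hardly differed early, had log2 ratios of -0.18 in CECT10094 and 1.18 in Temohaya-MI26 late with ethanol, against 2.69 and 2.36 without it. Its common change was -2.02 ± 0.43 (SE, adjusted p = 0.0240 in limma), or 4.07-fold lower, and -1.03 with an adjusted p of 0.254 under quantile normalization. *SUP45* had -0.06 and 0.17 with ethanol, against 2.16 and 1.77 without it, a change of -1.91 ± 0.38 (SE, adjusted p = 0.0200). In both genes the values with ethanol lay below those without it, and it was the late columns without ethanol that stood apart from the rest. *SUP45* is a gene of chromosome II, right arm. With the offset of those chromosome parts taken out, its differences were -1.41 in CECT10094 and -0.93 in Temohaya-MI26, and the common change no longer passed. Quantile normalization also ended that call. Its partner *SUP35* had differences of 0.10 and -0.58.

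The other elongation factors were spread widely. *EFT1* had 0.16 in CECT10094 and 1.02 in Temohaya-MI26 late with ethanol, against 2.70 and 1.72 without it (common change -1.62 ± 0.51 (SE), adjusted p = 0.0746 in limma). *TEF1*, measured on both sides only in CECT10094, had -0.73 with ethanol and 2.05 without it, a difference of -2.78. *EFB1* had 0.02 and 0.26 with ethanol against -1.07 and -0.87 without it, so that its order was the reverse of that of *EFT1*, at 1.10 in CECT10094 and 1.13 in Temohaya-MI26 (adjusted p = 0.0744). Taking out the chromosome offset gave 1.90 and 1.81 for *EFB1*. The exchange factor and the GTPase that it serves thus lay on opposite sides in CECT10094. *YEF3* had differences of -0.997 and 0.32, and *HYP2* had 0.12 and 1.24.

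By the limits, 3 of 29 genes fell in CECT10094 late, where the lower limit was -2.27, and all were elongation factors, *CAM1*, *TEF1* and *EFT1*. The upper limit of 1.23 was passed by *SUI1* and *TIF11*. Shares of all ORFs were 2.85% down and 2.76% up. In Temohaya-MI26 late, with limits of -1.71 and 1.25, none of 28 genes fell and *PAB1* and *SUI3* rose, and the shares of all ORFs were 2.51 and 3.04%. The elongation median was -0.73 in CECT10094 (n = 8) and 0.30 in Temohaya-MI26 (n = 7), and the initiation median was 0.19 and 0.31 (n = 19 each), where all ORFs had -0.51 and -0.25. Only the elongation median of CECT10094 included *TEF1*, at -2.78.

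Several initiation factors had higher values late with ethanol than without it, though none passed the test. *SUI3* had 0.21 and 0.29 with ethanol, against -0.87 and -1.10 without it, with a change of 1.23 ± 0.34 (SE) that missed the threshold (adjusted p = 0.0525 in limma). *SUI1* had 0.07 and -0.52 with ethanol, against -1.51 and -1.34 without it (adjusted p = 0.0644). *PAB1* had -0.03 in CECT10094 and 0.64 in Temohaya-MI26 with ethanol, against -0.46 and -1.14 without it (adjusted p = 0.113). *CDC33* had 0.13 and -0.01, against -0.69 and -0.91 (adjusted p = 0.140). *FUN12* and *RPG1* went the other way, with differences of -1.20 and -0.79 and of -1.11 and -0.82, which shrank to -0.39 and -0.12 and to -0.30 and -0.15 without the chromosome offset. *TIF1* had -0.82 in CECT10094 and 1.16 in Temohaya-MI26.

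Whether the change with ethanol differed between stages was tested as a contrast in the same fit, and it did so for 12 of 27 genes. The late change was higher than the early one for 11 genes and lower for *CAM1*. Of 5869 ORFs tested, 4.38% had a higher late change and 14.6% a lower one, and the median of all ORFs was -0.58. *EFB1* led with 3.54 ± 0.50 (SE, adjusted p = 0.00199 in limma), followed by *CDC33* with 3.20 ± 0.48 (SE, adjusted p = 0.00289). With the chromosome offset taken out, *EFB1* had 4.38 (adjusted p = 0.000686). *SUI3*, *TIF11* and *PAB1* had 2.72, 2.72 and 2.70, with adjusted p between 0.00538 and 0.0237. *HYP2*, *TIF4631*, *TIF35*, *CAF20*, *SUI1* and *TIF3* had contrasts between 1.68 and 2.28, with adjusted p between 0.0146 and 0.0446. The early side of *HYP2* rests on Temohaya-MI26 alone, and its call ended under quantile normalization, at 2.14 with an adjusted p of 0.0748. *CAM1* had -1.99 ± 0.61 (SE, adjusted p = 0.0425), a call that ended with columns centred on their medians, with quantile normalization and with the chromosome offset taken out. *EFT1*, which was lower with ethanol in both stages, had 1.89 (adjusted p = 0.0877), and passed under quantile normalization at 3.11 (adjusted p = 0.0110). Both elongation and initiation factors were thus among the genes that passed, 2 of 7 and 9 of 18 upwards.

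**Figure D3:**
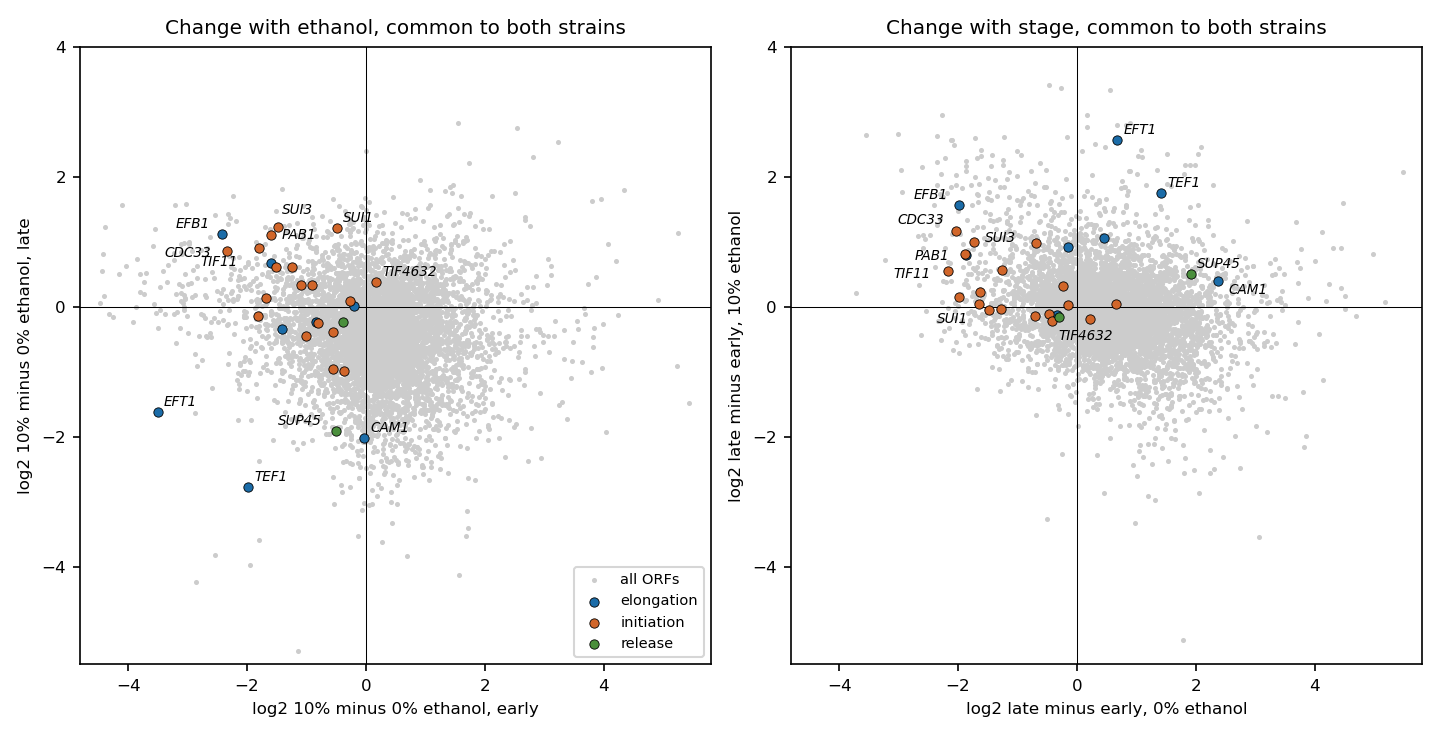
Changes common to both strains in limma, with every ORF in grey and translation factors in colour; the left panel sets the early (x) against the late (y) change, 10% minus 0% ethanol, and the right panel sets the late minus early change at 0% (x) against that at 10% ethanol (y), all on the log2 scale. *EFB1* lies at -2.43 and 1.12 in the left panel and *EFT1* at -3.50 and -1.62; *TEF1* has a value from CECT10094 alone on both axes of the left panel and on the x axis of the right one.

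The same columns can be read along growth. Without ethanol, 12 of 28 translation factors passed limma's threshold as lower late than early and 2 as higher. Of 5831 ORFs tested, 4.63% fell and 20.8% rose, and the median of all ORFs was 0.51. Under quantile normalization 4 fell (*EFB1*, *CDC33*, *PAB1* and *TIF11*) and none rose. The 8 falls that no longer passed were larger there than in the deposited values, at -2.25 to -1.54, with adjusted p of 0.0542 to 0.0883. These comparisons use the same columns without ethanol as the ethanol comparisons above, so they are no independent evidence for them. The 12 were *EFB1*, *HYP2* and 10 initiation factors.

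*TIF11* had -1.44 in CECT10094 and -1.16 in Temohaya-MI26 late without ethanol, against 0.57 and 1.17 early, a change of -2.17 ± 0.35 (SE, adjusted p = 0.00602 in limma). *CDC33* fell by 2.03 ± 0.34 (SE, adjusted p = 0.00641). *EFB1* changed by -1.98 ± 0.37 (SE, adjusted p = 0.00855) and *TIF4631* by -1.98 ± 0.36 (SE, adjusted p = 0.00838). For these genes every late value without ethanol lay below every early one. With the chromosome offset taken out, *EFB1* changed by -2.84 (adjusted p = 0.00234 in limma). *PAB1*, *HYP2*, *SUI3*, *SUI1*, *TIF35*, *SUI2*, *TIF5* and *CAF20* fell by 1.26 to 1.88. *SUI1* and *TIF5*, which had not passed early with ethanol, passed here, at -1.65 and -1.27.

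The 2 genes that were higher late without ethanol were *CAM1*, at 2.38 ± 0.50 (SE, adjusted p = 0.0120 in limma), and *SUP45*, at 1.92 ± 0.38 (SE, adjusted p = 0.0101). *SUP45* had 2.16 and 1.77 late, against -0.04 and 0.14 early. Both calls ended under quantile normalization, with adjusted p of 0.187 and 0.120. With the chromosome offset taken out, the rise of *SUP45* shrank to 1.06 and still passed (adjusted p = 0.0399 in limma). *EFT1* had 2.70 in CECT10094 and 1.72 in Temohaya-MI26 late, against 0.95 and 2.11 early, and its strains went opposite ways.

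With ethanol fewer genes passed. None of 30 translation factors passed limma's threshold as lower late than early. Changes below 0 were found for 8 of the 30, against 3181 of 5860 ORFs. *EFT1* and *EFT2* passed as higher, where 0.58% of 5860 ORFs fell and 1.45% rose. At an unadjusted p under 0.05, 9 rose and none fell, where 6.69% of all ORFs rose and 6.66% fell. *EFT1* rose by 2.56 ± 0.53 (SE, adjusted p = 0.0446 in limma) and *EFT2* by 2.48 ± 0.42 (SE, adjusted p = 0.0259). The call of *EFT2* rests on 4 columns and 1 residual degree of freedom, against 8 columns and 2 for *EFT1*. Whether this pair gives separate signals was not tested. The call of *EFT1* ended under quantile normalization, at 2.76 with an adjusted p of 0.0562. *EFT2* had 0.11 and 1.26 late with ethanol, against -1.70 and -1.88 early with ethanol, so both late values lay above both early ones. *EFB1* missed the threshold at 1.56 (adjusted p = 0.0703), as did *TIF1* at 1.71 (adjusted p = 0.0635). Both passed with columns centred on their medians. The median over elongation factors was 1.07 (n = 9 genes) and over initiation factors 0.15 (n = 19).

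**Figure D4:**
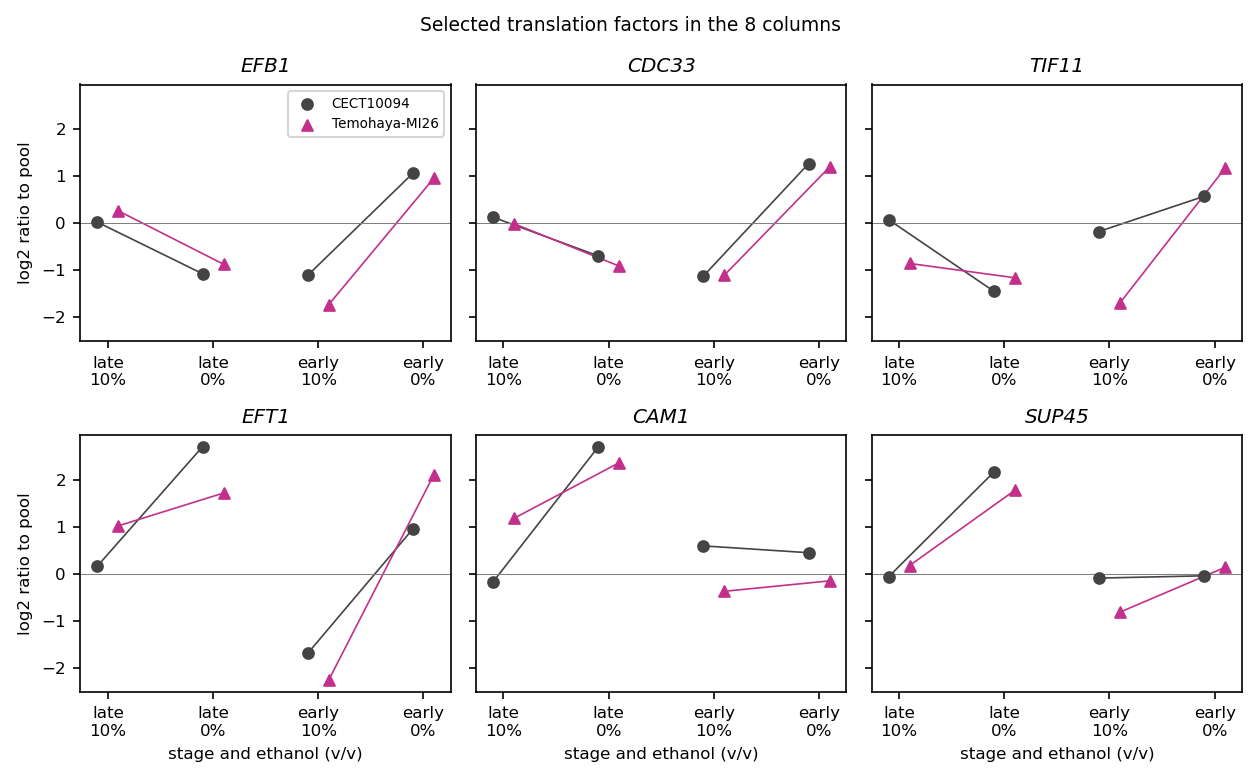
Log2 ratio to the pool of 6 translation factors in each strain (circles, CECT10094; triangles, Temohaya-MI26), with lines joining 10 and 0% ethanol of 1 stage. *EFB1* and *CDC33* lie above 0.9 early without ethanol in both strains and below -0.6 late without it, while *CAM1* and *SUP45* lie above 1.7 only late without ethanol.

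Between the strains, no translation factor passed the test for a gap common to the 4 conditions. This was 0 of 30 genes at an adjusted p under 0.05 in limma, where 0.0166% of 6013 ORFs were higher in CECT10094 and 0.0665% were lower. At an unadjusted p under 0.05 it was also 0 of 30, where 2.11% of ORFs were higher and 3.59% lower. The largest gaps in each direction, CECT10094 minus Temohaya-MI26, were -1.04 ± 0.53 (SE) for *TEF1* and 0.46 ± 0.27 (SE) for *TEF4*. For *TEF1* the gap rests on the columns with ethanol alone, with differences of 0.10 early and -2.18 late. It had 1 residual degree of freedom and is no gap common to the 4 conditions. The medians over the elongation and the initiation factors were -0.29 and 0.00. With 8 columns the fit had 3 residual degrees of freedom, and a p over the threshold does not show that the strains were alike.

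Genes that work beside the translation factors were listed for comparison. Of 21 cytosolic aminoacyl-tRNA synthetases, which charge the tRNAs that eEF1A delivers, 16 fell early with ethanol and none rose, with median differences of -1.23 in CECT10094 and -1.68 in Temohaya-MI26. *DED81*, for asparagine, had the largest fall at 2.16 ± 0.47 (SE, adjusted p = 0.00993 in limma), and *GUS1*, for glutamate, fell by 2.05 ± 0.45 (SE, adjusted p = 0.0107). In the late stage none of the 21 passed. Of 117 cytosolic ribosomal protein genes tested early, 95 fell and 1 rose, and their median difference was -2.32 for CECT10094 and -2.76 for Temohaya-MI26, where the translation factors had -0.94 and -1.21. Late, none of 130 fell and 1 rose. Shares of all ORFs were 6.94% down and 10.5% up early, and 7.01% down and 0.815% up late.

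Of 12 elongation accessory and modification genes, 3 fell early and none passed late. *STM1*, for a protein that clamps idle ribosomes, fell by 3.09 ± 0.35 (SE, adjusted p = 0.000444 in limma). *LIA1*, the hydroxylase that completes hypusine on eIF5A, fell by 2.31 ± 0.42 (SE, adjusted p = 0.00387), and *DPH5*, which acts in making the diphthamide of eEF2, by 1.38 ± 0.40 (SE, adjusted p = 0.0361). Of 13 further initiation and recycling factors, *TIF6*, for the anti-association factor eIF6, fell early, by 1.61 ± 0.42 (SE, adjusted p = 0.0229). Late, *GCD2*, a regulatory subunit of the exchange factor eIF2B, fell by 1.98 ± 0.43 (SE, adjusted p = 0.0246). *HCR1*, the substoichiometric eIF3 subunit, rose by 1.35 ± 0.36 (SE, adjusted p = 0.0449). At the same threshold 6.94% of all ORFs fell early, and 7.01% fell and 0.815% rose late. The 1 fall of 13 in each stage thus lay near the share of all ORFs. None of the 5 genes of the GCN pathway, which acts through eIF2 alpha, passed in either stage, with 1 fall early and 2 falls and 1 rise late at an unadjusted p under 0.05. Of all ORFs 11.7% fell early at that p, and 22.9% fell and 3.89% rose late. None of 8 mitochondrial translation factors passed either, also unadjusted, with median differences of 0.16 in CECT10094 and -0.20 in Temohaya-MI26 early.

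Oxygen bears on this family through *ANB1* and *HYP2*, and hypoxic and aerobic genes were read beside them. Late, 3 of 11 hypoxic genes fell with ethanol and none rose. *HEM13*, a heme synthesis gene that heme represses, fell by 3.53 ± 0.37 (SE, adjusted p = 0.00274 in limma). *CYC1*, the aerobic cytochrome c gene, rose by 2.18 ± 0.45 (SE, adjusted p = 0.0243), 1 of 3 aerobic genes to do so. Early, 2 hypoxic genes fell and 2 rose. Genes of zinc supply, read because eIF2 beta and eIF5 hold zinc, had 3 rises of 10 early and 2 falls of 10 late, with *ZAP1*, the zinc-responsive activator, at 2.07 ± 0.40 (SE, adjusted p = 0.00573) early and -1.88 ± 0.40 (SE, adjusted p = 0.0243) late. Shares of all ORFs were 6.94% down and 10.5% up early, and 7.01% down and 0.815% up late. The part of oxygen or zinc in the values of the translation factors was not tested.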

How the data were processed

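RNA of 8 conditions was hybridised to spotted cDNA arrays. With GenePix Pro 6.0 the authors removed a global background, then formed log2 ratios of Cy5 (sample) to Cy3 (pool of all samples), normalised them by ratio in Acuity 4.0, kept spots with at least 2 replicates and deposited the median of 3 slides per condition. The genome build behind the spotted products is not given in the sources used here. Deposited log2 values were used as they are. The authors' table of 4 columns of log2 differences between 10 and 0% ethanol was not used.

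Of the table, 2 control entries were left out and 6152 ORFs kept, of which 5653, and all 33 listed genes, matched the yeast reference by locus tag. Differences were taken as 10% minus 0% ethanol and called outside the central 95% of a normal distribution with the mean and standard deviation of all ORFs, the standard-deviation rule of the study's methods without their false discovery step. All 8 columns entered each fit of limma 3.58.1 (R 4.3.3). Blocks were strain by stage for ethanol, strain by ethanol for stage, and stage by ethanol for strain. Benjamini-Hochberg adjustment covered all ORFs tested, at 0.05. An ORF with no residual degrees of freedom has a value and no test. Fold sizes are 2 raised to the log2 change. The prior added 6.49 to 9.17 degrees of freedom to the 2 or 3 of a fit. The fit was also run on simulated data with independent noise and changes in the early stage alone. That setting is simpler than the real columns, so it does not check the calls made here.

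Listed genes and companion lists were chosen with earlier results of these data known. Every listed gene could be named, with full values for those past a threshold and for gene pairs, and at most 3 genes of a companion list. The number of arrays limits precision, and the depth of a value is unknown. Alternatives were other limits, columns centred on their medians, quantile normalization, centring by chromosome group, a robust prior, ORFs with values in all 8 columns, an adjusted p under 0.10 and, for class medians, means, fewer members and merged copies. Merging copies could change no median, since *TEF2* was not analysed and *EFT2* and *TIF2* had no difference with ethanol.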

Additional observations from a re-analysis of the deposited data

Results flagged for a closer look

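For 12 translation factors the change with ethanol differed between the late and the early stage by limma's contrast at an adjusted p under 0.05, with values as late minus early on the log2 scale. The contrast was 3.54 for *EFB1*, 3.20 for *CDC33*, 2.72 for *SUI3*, 2.72 for *TIF11* and 2.70 for *PAB1*. It was 2.28 for *HYP2*, 2.12 for *TIF4631*, 1.86 for *TIF35*, 1.83 for *CAF20*, 1.70 for *SUI1* and 1.68 for *TIF3*. *CAM1* alone had a lower late change, at -1.99. Stage, hours with ethanol and the growth of the culture cannot be told apart in this contrast. No gene had differences on opposite sides of the median of all ORFs in the 2 strains by 0.5 or more to each side within a stage.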

How the results depend on the processing

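No analysis of single slides was possible because each condition has 1 combined column and the slides are not separate. Columns were paired only through the blocks of each fit. No called change and no median ethanol difference of the elongation or initiation factors changed its direction under any alternative. Values that passed no test did in places, such as *EFT1* late minus early without ethanol, at 0.68, and -0.34 under quantile normalization, and *TEF4* late with ethanol, at -0.23, and 0.10 with centred columns. The median differences of the elongation and initiation factors moved by less than 0.53 under each. Merging copies could not move them, as no pair had differences for both copies. Of the calls for single genes, 189 stayed and 18 fell below the threshold over all alternatives. Past the limits, the count that fell in CECT10094 early was 6, and 11 with median and MAD limits, 3 at 99% limits and 12 at a fixed log2 difference of 1. In the same order it was 4, and 7, 1 and 16, in Temohaya-MI26 early. CECT10094 late had 3 falls, and 1 at 99% limits and 6 at the fixed difference, and 2 rises, and 0 and 5. Temohaya-MI26 late had 0 falls, and 1 with MAD limits and 2 at the fixed difference, and 2 rises, and 5 with MAD limits, 1 at 99% limits and 5 at the fixed difference. In limma, late falls with ethanol were 2, and 0 under quantile normalization and 1 with centring by chromosome group. Late rises were 0, and 4 with centred columns, 4 with centring by chromosome group, 2 with the robust prior, 2 over ORFs with values in all 8 columns and 3 at an adjusted p under 0.10. The lower late contrast was 1, and 0 with centred columns, quantile normalization or centring by chromosome group and 2 at the looser p. Without ethanol, falls with stage were 12, and 4 under quantile normalization, and rises 2, and 0. With ethanol, rises with stage were 2, and 4 with centred columns, 1 under quantile normalization, 4 with centring by chromosome group, 1 over ORFs with all values and 4 at the looser p. The cause was not tested, except that other limits and the looser p act by their own construction. Slides were combined before deposit, so signal over background cannot be read for any gene.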

Other observations

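*TIF1*, for eIF4A, was measured late on both sides in both strains, with -0.25 with ethanol and 0.58 without it in CECT10094, and 0.83 and -0.33 in Temohaya-MI26. *TIF2*, its near-identical copy, had 0.73 in CECT10094 late without ethanol and 0.89 in Temohaya-MI26 late with ethanol. *HEF3*, *SUP35*, *GCD11* and *TIF4632* were among the listed genes that passed neither the limits nor the test in any comparison with ethanol. Their log2 ratios stayed between -0.94 and 0.59 over the 8 columns. *TEF4*, *FUN12*, *NIP1*, *PRT1*, *RPG1*, *TIF34* and *TIF5* also passed neither, and *NIP1* and *TIF34* stayed in that range too.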
